A study of Mus musculus with 2 samples.

Results

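Type I interferon-stimulated genes are the genes that cells switch on after sensing interferon alpha or beta. They are described here through a list of 36 genes, chosen by name as known members of that response, and all 36 had a row among the 15121 genes of the deposited single-cell table. The cells, labelled as T cells, came from the NILER model, a syngeneic mouse melanoma grown from the Nras Q61R line NIL after UV irradiation had added mutations. Both groups share that tumour and the time point, day 5. The untreated group received no drug, and the treated group was given trametinib, which blocks MEK, combined with BGB-283, which blocks RAF kinases. There was a single droplet library for each group. Treatment and library therefore cannot be told apart, no spread between animals could be estimated and no test was possible. The labels give neither the number or age of the animals nor the sort.

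In this pathway interferon alpha and beta bind the receptor made of Ifnar1 and Ifnar2, the kinases Jak1 and Tyk2 become active, and a complex that holds Stat2 and Irf9 binds a GAAA-rich element in the promoters of target genes. The targets include sensors of foreign nucleic acid, enzymes and binding proteins that block viral growth, the ubiquitin-like protein Isg15, and Irf7, which amplifies interferon production. In tumours this program is known in T cells, dendritic cells and macrophages, and many of its genes also respond to interferon gamma.

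The untreated library held 9312 cells (median 6155 UMIs, unique transcript molecules) and the treated library 8078 cells (median 5987.5). Cells were gated by their UMIs, and levels are UMIs per 1000000 UMIs of the gate (CPM). The CD8 gate held 4192 untreated and 4768 treated cells, the CD4 gate 909 and 487, the Foxp3 gate of regulatory T cells 486 and 419, the dendritic gate 353 and 93, and the macrophage gate 216 and 193. Myeloid cells were thus present in libraries labelled as T cells. The libraries shared 35 cell barcodes. Markers of other cells were low but unequal within the T cells: the 12 macrophage markers summed to 58.0 CPM untreated and 44.3 treated, the 12 dendritic markers to 21.7 and 28.2, the 4 class II genes to 498 and 160, the 2 red cell genes to 200 and 1.59, the 4 neutrophil genes to 4.95 and 30.7, the 3 natural killer cell genes to 47.8 and 54.7, the 3 B cell genes to 12.9 and 10.8, and the 3 stromal or tumour genes that were measured to 16.4 and 58.4. No measured gene of these lists was at 0 in all T cells of either library. The T cell gate itself allows fewer than 3 macrophage and fewer than 3 dendritic genes per cell, which holds those levels down. Their part in the results was not tested. Intervals are exact 95% intervals that cover counting error only, since the cells of a library are not replicates. Fewer cells with a transcript and less transcript per cell both lower a CPM, so the shares of cells are given separately.

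Promoter windows for 28 of the 36 genes were found in RefSeq (GRCm38.p6), each running from 250 bases before to 50 bases after a transcription start. The letters GAAA, any 2 bases, then GAAA again, the core of the element that the complex with Stat2 and Irf9 binds, were searched on both strands. They were present for 18 of the 28 genes (64.3%), against 4.04% of the 11264 genes of the table that had a window, and were in 3.44% of all 32851 windows of that length. The windows of Ifit1, Ifit3 and Ifit3b, among the genes with the largest CD8 differences, are shown with those of Isg15, whose CD8 difference stayed under 1.5-fold, and Stat2, which was higher in treated cells. Each is the 250 bases before the start, 5′ to 3′ on the strand of the gene, with every match in capitals; overlapping matches form 1 longer run.
Ifit1 (chr19:34640639-34640888, plus strand): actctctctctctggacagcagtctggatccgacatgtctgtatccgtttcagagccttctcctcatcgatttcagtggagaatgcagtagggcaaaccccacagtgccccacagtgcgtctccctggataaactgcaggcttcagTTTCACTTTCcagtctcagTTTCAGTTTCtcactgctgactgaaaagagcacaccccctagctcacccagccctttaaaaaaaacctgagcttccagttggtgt
Ifit3 (chr19:34583279-34583528, plus strand): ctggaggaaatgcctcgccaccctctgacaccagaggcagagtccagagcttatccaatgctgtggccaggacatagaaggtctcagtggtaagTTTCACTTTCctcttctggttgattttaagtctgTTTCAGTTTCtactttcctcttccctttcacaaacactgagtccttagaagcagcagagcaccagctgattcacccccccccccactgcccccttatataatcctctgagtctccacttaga
Ifit3b (chr19:34607707-34607956, plus strand): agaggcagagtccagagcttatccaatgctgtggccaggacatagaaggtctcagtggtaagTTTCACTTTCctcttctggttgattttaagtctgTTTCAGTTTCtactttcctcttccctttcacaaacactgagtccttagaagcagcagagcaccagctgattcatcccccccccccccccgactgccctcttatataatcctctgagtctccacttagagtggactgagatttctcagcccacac
Isg15 (chr4:156200819-156201068, minus strand): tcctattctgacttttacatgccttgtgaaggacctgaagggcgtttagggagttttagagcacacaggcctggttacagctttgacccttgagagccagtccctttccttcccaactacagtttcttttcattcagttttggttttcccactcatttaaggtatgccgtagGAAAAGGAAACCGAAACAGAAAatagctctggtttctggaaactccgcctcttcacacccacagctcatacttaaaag
Stat2 (chr10:128270248-128270497, plus strand): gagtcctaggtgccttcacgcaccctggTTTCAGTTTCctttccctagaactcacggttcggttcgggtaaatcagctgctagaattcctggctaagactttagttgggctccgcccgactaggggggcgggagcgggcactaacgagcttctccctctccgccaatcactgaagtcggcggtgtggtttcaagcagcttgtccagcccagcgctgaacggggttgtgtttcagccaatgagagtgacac
Ifit1, Ifit3 and Ifit3b each hold 2 separate matches, Isg15 holds 3 overlapping ones and Stat2 holds 1. The letters were present for 9 of 14 genes that were at least 1.5-fold lower in treated CD8 cells, 8 of 13 within 1.5-fold and 1 of 1 higher, so their presence did not separate these classes. A match is a run of letters and not a measured binding site.

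In CD8 T cells most of the list was lower in the treated library. Of the 36 genes, 20 were at least 1.5-fold lower, where 20.1% of all 12539 genes with 20 or more UMIs were, and 1 was at least 1.5-fold higher, where 30.9% of all genes were. The median gene of the list had a log2 ratio of treated to untreated of -0.86, against 0.12 over all genes, which is -0.98 when centred on the median of all genes. Summed over the list, the level was 1600 CPM untreated and 1046 CPM treated, 1.53-fold lower. With a minimum mean level of 20 CPM, 22 genes entered and 11 of them were lower. The share of all genes that were lower at that minimum is not given here. The differences were uneven and ran from 6.85-fold lower for Ifit3b to 1.58-fold higher for Stat2.

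**Figure D1:**
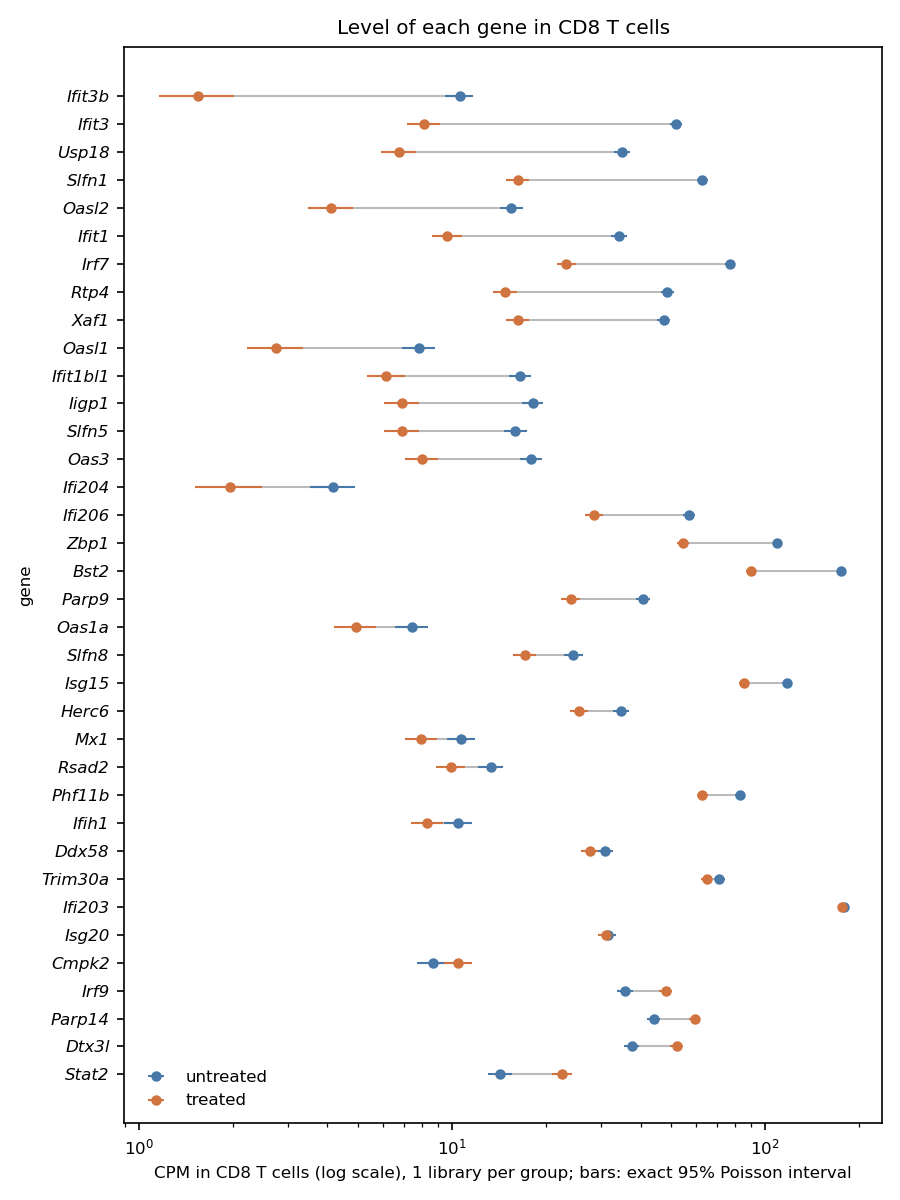
Level of each of the 36 genes in CD8 T cells, in CPM on a log axis, with genes ordered by the ratio; points are the untreated and treated library (1 each) and bars are exact 95% Poisson intervals. The longest gaps are at the top, where Ifit3 stood at 51.9 and 8.12 CPM, and the order of the points is reversed at the bottom, where Stat2 stood at 14.2 and 22.4 CPM.

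The 3 transcription factors of the list went different ways. Irf7, the amplifier of interferon production, stood at 77.4 CPM untreated (74.5 to 80.4) and 23.2 CPM treated (21.6 to 24.8), 3.34-fold lower (3.09 to 3.62). Stat2, the subunit that carries the activation domain of the interferon complex, stood at 14.2 CPM (13 to 15.5) and 22.4 CPM (20.9 to 24.1), 1.58-fold higher (1.41 to 1.77). Irf9, its DNA-binding partner, stood at 35.7 and 48.1 CPM, a 1.35-fold difference (1.25 to 1.45) under the 1.5-fold line. Under several alternatives, among them centring on the median of all genes, Stat2 also came under that line while staying higher. The genes of both factors of the complex thus stood higher in treated CD8 cells, while Irf7 stood lower.

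The IFIT family, cytoplasmic proteins that bind viral RNA or the host's translation factors, held the largest differences. All 4 of its genes on the list were lower, from 113 CPM summed to 25.5 CPM. Ifit3 was at 51.9 CPM untreated (49.6 to 54.4) and 8.12 CPM treated (7.20 to 9.13), 6.39-fold lower (5.63 to 7.28). Its neighbour Ifit3b stood at 10.6 and 1.54 CPM, 6.85-fold lower (5.13 to 9.32). The transcripts of these 2 genes were 98.0% identical over 1697 aligned bases, so the split of reads between them is uncertain, and their sum was 6.47-fold lower (5.76 to 7.28). Ifit1 stood at 34.2 and 9.64 CPM, 3.55-fold lower (3.14 to 4.02), and Ifit1bl1 at 16.5 and 6.17 CPM, 2.68-fold lower (2.28 to 3.15).

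The OAS family, which makes or resembles the makers of the 2-5A messenger that activates RNase L, was also lower for all 4 genes. Oasl2 was at 15.5 CPM untreated and 4.11 CPM treated, 3.76-fold lower (3.12 to 4.56). Oasl1, a repressor of Irf7 translation, stood at 7.83 and 2.74 CPM, 2.86-fold lower (2.25 to 3.65). Oas3 was 2.23-fold lower (1.93 to 2.58), and Oas1a lay at the line with 1.51-fold (1.24 to 1.84).

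Isg15, a ubiquitin-like tag for proteins, and Usp18, the protease that removes it and also dampens signalling at Ifnar2, differed unequally. Usp18 was at 34.9 CPM untreated (32.9 to 36.9) and 6.75 CPM treated (5.91 to 7.68), 5.16-fold lower (4.48 to 5.97). Isg15 was at 117 CPM (114 to 121) and 85.4 CPM (82.4 to 88.6), 1.37-fold lower (1.31 to 1.44), and its ligase Herc6 was 1.36-fold lower (1.25 to 1.49). The protease gene was thus far lower while the tag and its ligase stayed within 1.5-fold.

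Among the 6 nucleic acid sensors, the RNA helicases Ifih1 and Ddx58 were within 1.5-fold, at 1.26-fold lower (1.07 to 1.47) and 1.12-fold lower (1.03 to 1.22). Zbp1, a sensor of left-handed nucleic acid that can start cell death, was at 109 CPM untreated and 54.6 CPM treated, 2.00-fold lower (1.89 to 2.12). Of 3 genes of the Ifi200 family of DNA-binding proteins, Ifi203 was at 179 and 177 CPM, Ifi206 was 2.00-fold lower (1.85 to 2.17) and Ifi204 was 2.14-fold lower (1.59 to 2.90). These relatives share sequence, and reads could be split between them, to a degree that was not tested. The transcripts of Ifi203 and Ifi206 were 67.8% identical over 1643 aligned bases, and Ifi204 was not aligned to either.

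Parp9 and Dtx3l encode partners in 1 ADP-ribosylation and ubiquitin ligase complex, and Parp14 is a related enzyme. Parp9 was at 40.8 CPM untreated and 23.9 CPM treated, 1.70-fold lower (1.56 to 1.86). Dtx3l stood at 37.4 and 52.2 CPM, 1.39-fold higher (1.3 to 1.5), and Parp14 at 44.0 and 59.5 CPM, 1.35-fold higher (1.26 to 1.45). The genes of the 2 complex partners therefore differed in opposite directions, and this held under every alternative run in CD8 cells.

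The Schlafen family, regulators of T cell growth and quiescence, differed by member. Slfn1 was at 63.0 CPM untreated (60.4 to 65.7) and 16.2 CPM treated (14.9 to 17.6), 3.89-fold lower (3.54 to 4.28). Slfn5 was 2.31-fold lower (1.98 to 2.70) and Slfn8 1.43-fold lower (1.29 to 1.59).

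Of the 10 other effectors, 4 were at least 1.5-fold lower and none was higher by that much. Rtp4, a chaperone that acts against flaviviruses, was at 48.6 CPM untreated and 14.8 CPM treated, 3.29-fold lower (2.98 to 3.64). Xaf1, which promotes cell death, was 2.92-fold lower (2.65 to 3.22), Iigp1, a GTPase that attacks the vacuoles of intracellular parasites, 2.62-fold lower (2.26 to 3.06), and Bst2, the tetherin that holds virus particles at the cell surface, 1.93-fold lower (1.85 to 2.02). The antiviral genes Rsad2, Mx1 and Phf11b were between 1.32-fold and 1.34-fold lower. Cmpk2, which lies beside Rsad2 and supplies its nucleotide substrate, was 1.20-fold higher (1.03 to 1.41). The exonuclease gene Isg20 was at 31.4 and 31.1 CPM and the inflammasome regulator Trim30a at 71.4 and 65.1 CPM.

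The CD8 gates of the libraries were not alike in state. A UMI of Pdcd1, the gene of the inhibitory receptor PD-1, was present in 26.1% of untreated and 65.5% of treated CD8 cells. The list was therefore also compared among cells with a Pdcd1 UMI (1096 and 3122 cells). Their UMIs summed to 15359526 and 24613944, so the untreated cells of this subset were deeper on average. Detection of a Pdcd1 UMI follows depth, so the subset is not matched in depth or state. The part of depth was not tested. There 21 of 36 genes were at least 1.5-fold lower, against 22.9% of 11700 genes, and 2 higher, against 30.0%. The median log2 ratio was -0.64, against 0.07 over all genes, and the summed level of the list was 1321 and 952 CPM.

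Among the cells with Pdcd1, Usp18 stood at 23.4 and 4.02 CPM, 5.83-fold lower (4.65 to 7.35). Ifit3 stood at 29.9 and 5.65 CPM, 5.30-fold lower (4.38 to 6.46), and Irf7 at 48.9 and 16.3 CPM, 2.99-fold lower (2.65 to 3.39). These genes of the IFIT family, the ISG15 pathway and the transcription factors thus differed in the same direction as in the whole gate. Slfn1 was 2.68-fold lower (2.34 to 3.07), Oasl2 3.49-fold lower (2.29 to 5.40), Oasl1 2.98-fold lower (1.87 to 4.86) and Iigp1 2.80-fold lower (2.09 to 3.77). The 2 higher genes were Stat2, at 12.6 and 20.5 CPM (1.62-fold, 1.37 to 1.92), and its partner Irf9, at 30.3 and 47.0 CPM (1.55-fold, 1.39 to 1.73). Isg15 stood at 97.3 and 83.2 CPM, 1.17-fold lower (1.09 to 1.25). Values in the CD8 cells without a Pdcd1 UMI are not given here, and the part of cell state in the differences of the whole CD8 gate was not tested.

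In CD4 T cells 16 of 36 genes were at least 1.5-fold lower, against 19.1% of 9742 genes, and 3 were higher, against 24.4%. The median was -0.45, with 0.03 over all genes. Slfn1 was at 133 CPM untreated and 32.9 CPM treated, 4.03-fold lower (3.19 to 5.15). Ifit3 stood at 44.0 and 11.0 CPM, 4.01-fold lower (2.67 to 6.24), and Ifit1 at 56.2 and 17.9 CPM, 3.15-fold lower (2.27 to 4.44). Isg15 stood at 164 and 161 CPM, a ratio whose interval covered 1. The higher genes were Stat2, at 17.4 and 32.9 CPM (1.9-fold, 1.37 to 2.63), Iigp1, at 35.2 and 59.7 CPM (1.70-fold, 1.34 to 2.14), and Dtx3l, at 38 and 63.0 CPM (1.66-fold, 1.32 to 2.08). The 2 red cell genes, used as markers of other cells, summed to 1178 CPM in untreated CD4 cells and 0.813 CPM in treated ones, and the stromal or tumour genes to 31.2 and 167 CPM. Their part in these ratios was not tested.

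Foxp3 T cells showed the smallest overall difference of the T cell gates. There 10 of 36 genes were at least 1.5-fold lower, against 15.0% of 9725 genes, and 4 were higher, against 18.3%, with a median of -0.21 against -0.02. The summed level of the list was 2265 and 2041 CPM. Ifit3 stood at 31.2 and 22.2 CPM, 1.41-fold lower (1.03 to 1.93), and Ifit1 at 53.9 and 37.7 CPM, 1.43-fold lower (1.13 to 1.82). The summed UMIs of Ifit3 and Ifit3b, whose split is uncertain, stood at 42.2 and 23.5 CPM, 1.79-fold lower (1.35 to 2.41), past the 1.5-fold line. Under the alternatives the log2 ratio of Ifit3 ran from -1.05 to -0.46 and that of Ifit1 from -0.64 to -0.19, so both crossed that line in some. Irf7 stood at 87.1 and 45.4 CPM, 1.92-fold lower (1.57 to 2.36), and Slfn1 at 46.0 and 17.5 CPM, 2.62-fold lower (1.91 to 3.64). Isg20, a gene at 151 and 95 CPM here, was 1.58-fold lower (1.37 to 1.83). Ifit3b was 8.27-fold lower (2.99 to 31.8) on 40 and 4 UMIs, and Ifi204 7.17-fold lower (2.20 to 37) on 26 and 3 UMIs. The 4 higher genes were Iigp1, Stat2, at 24.4 and 43.7 CPM (1.79-fold, 1.36 to 2.37), Slfn8, at 31.8 and 56.0 CPM (1.76-fold, 1.38 to 2.25), and Mx1, at 6.30 and 9.60 CPM with an interval of the ratio from 0.852 to 2.76.

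**Figure D2:**
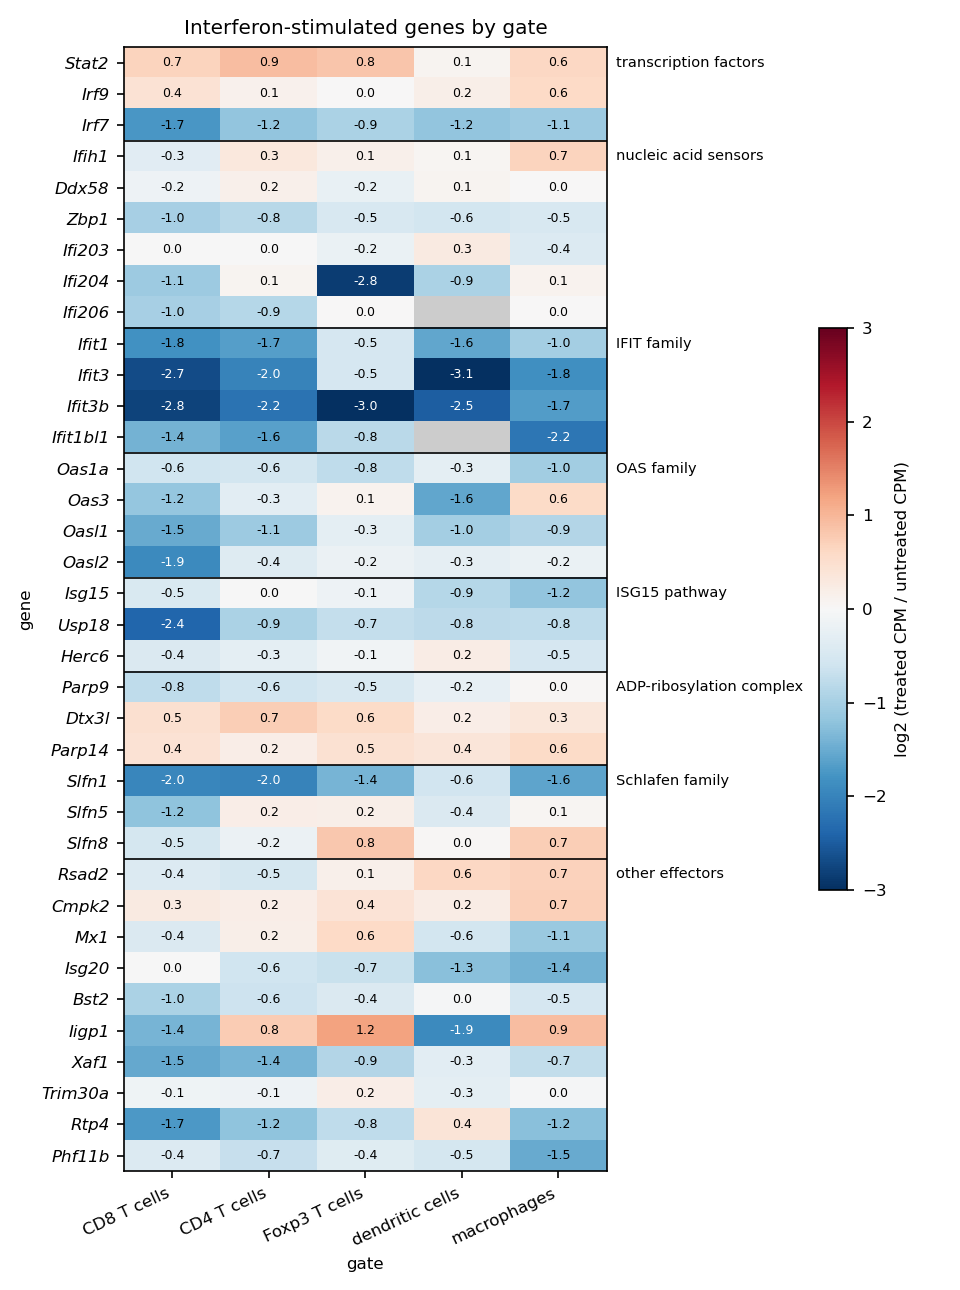
Log2 ratio of treated to untreated CPM for the 36 genes in 5 gates, grouped by role; blue is lower and red higher in the treated library, and grey marks genes under the minimum of 20 UMIs. The IFIT rows are blue in every gate where they were measured, Stat2 is 0.66 in CD8, 0.92 in CD4 and 0.84 in Foxp3 cells, and Iigp1 runs from -1.91 in dendritic cells to 1.21 in Foxp3 cells.

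Over these gates, 7 genes were at least 1.5-fold lower in CD8, CD4 and Foxp3 cells alike: Irf7, Ifit3b, Ifit1bl1, Usp18, Slfn1, Xaf1 and Rtp4. The share of all genes lower in all of these gates was not counted, so this number has no background beside it. Ifit3b rested on few UMIs in Foxp3 cells, and its split from Ifit3 is uncertain. Of the 7, Irf7, Ifit3b, Ifit1bl1 and Usp18 were also lower in each myeloid gate where they passed the minimum count. For Ifit1bl1 that was the macrophage gate alone. Ifit3b again rested on few treated UMIs in dendritic cells, where Ifit3 and Ifit3b together had 157 untreated and 4 treated UMIs. In dendritic cells with an Xcr1 or Clec9a UMI, however, Irf7 (log2 ratio -0.34) and Usp18 (-0.23) were within 1.5-fold. Usp18 was also within it (-0.57) in macrophages with a C1q UMI. Ddx58, Ifi203, Herc6, Parp14 and Trim30a stayed within 1.5-fold in every gate.

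The dendritic gate, with 11 of 34 measured genes at least 1.5-fold lower (18.6% of 9832 genes) and 1 higher (23.0%), had a median of -0.31. Irf7 was at 294 CPM untreated and 129 CPM treated, 2.28-fold lower (1.92 to 2.71). Isg15 stood at 264 and 146 CPM, 1.81-fold lower (1.55 to 2.14), and Oasl1 at 49.5 and 24.3 CPM, 2.04-fold lower (1.38 to 3.12). Ifit3 was 8.56-fold lower (2.86 to 42.0) on 129 and 3 UMIs, and Ifit1bl1 had 13 and 0 UMIs. Rsad2, the viperin gene, was the 1 gene higher, at 22.9 and 35.6 CPM (1.55-fold, 1.06 to 2.21). Bst2 stood at 503 and 493 CPM.

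The makeup of the dendritic gate differed as well. Stromal or tumour genes summed to 6.21 CPM untreated and 1779 CPM treated, with Pmel at 0 in both, and neutrophil genes to 1.04 and 143 CPM. Cells with 3 or more UMIs of cell cycle genes made up 22.7% and 5.38%, and without them 17 of 34 measured genes were lower, against 16.2% of all genes, and 0 higher, against 25.1%. The part of these cells in the result was not tested. Xcr1, a gene of cross-presenting dendritic cells, had a UMI in 60.9% of untreated and 23.7% of treated cells of the gate (35.3% and 6.52% at 2000 UMIs per cell). Fscn1, a gene of mature migratory ones, had a UMI in 19.8% and 51.6% (16.1% and 47.8%), and Siglech, a gene of the plasmacytoid kind, in 17.3% and 10.8% (16.4% and 9.78%). Restricted to the 242 and 28 cells with an Xcr1 or Clec9a UMI, 6 of 32 measured genes were lower, against 17.6% of all genes there, and 7 higher, against 20.3%. The median was 0.07, against 0.05 over all genes, and single genes lay far on both sides of it. Ifit3 was at a log2 ratio of -2.77, Iigp1 at -1.74, Irf7 at -0.34 and Herc6 at 1.09.

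In macrophages 15 of 36 genes were at least 1.5-fold lower, against 17.5% of 10214 genes, and 7 were higher, against 23.1%, with a median of -0.44. Isg15 was at 353 CPM untreated and 155 CPM treated, 2.27-fold lower (2.01 to 2.58). Ifit3 stood at 78.4 and 21.8 CPM, 3.59-fold lower (2.61 to 5.02), and Phf11b at 93.8 and 33.0 CPM, 2.84-fold lower (2.18 to 3.75). Mx1, at 22.2 and 10.2 CPM, and Isg20, at 25.9 and 9.76 CPM, were also lower. The 7 higher genes were Stat2, Irf9, Ifih1, Slfn8, Rsad2, Cmpk2 and Iigp1, from 1.5-fold for Irf9 (1.14 to 1.98) to 1.9-fold for Iigp1 (1.49 to 2.43). The neighbours Rsad2 (1.61-fold, 1.3 to 1.98) and Cmpk2 (1.65-fold, 1.04 to 2.64) were thus both on the higher side in the main values. Under the alternatives the log2 ratio of Rsad2 ran from -0.20 to 1.23 and that of Cmpk2 from 0.19 to 0.85. Both thus came under the 1.5-fold line in some, and Rsad2 changed sign. Within the macrophage gate the red cell genes summed to 2495 CPM untreated and 22.3 CPM treated, the stromal or tumour genes to 155 and 915 CPM, and the neutrophil genes to 617 and 905 CPM. Their part in the result was not tested. C1qa, a complement gene of resident macrophages, had a UMI in 71.3% of untreated and 39.4% of treated cells (60.1% and 36.4% at 2000 UMIs). Other genes went the other way. Apoe, also a macrophage marker here, had a UMI in 83.3% and 86.5% (70.2% and 79.5%). Ly6c2 had one in 21.8% and 35.2% (16.3% and 21.6%), and Ccr2 in 31.9% and 43.5% (18.5% and 31.8%). The 12 macrophage markers summed to 20877.4 CPM untreated and 26650.5 CPM treated. Cells with 3 or more UMIs of cell cycle genes made up 22.7% and 2.59%. Among the 179 and 91 cells with a C1q UMI, 14 genes were lower, against 17.4% of all genes there, and 5 higher, against 22.2%. Without the cycling cells 20 were lower, against 15.4%, and 2 higher, against 24.5%.

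Iigp1 differed most in direction between gates. It was at 18.1 and 6.90 CPM in CD8 cells, 35.2 and 59.7 CPM in CD4 cells and 90.9 and 210 CPM in Foxp3 cells, where it was 2.31-fold higher (2.02 to 2.65). In dendritic cells it stood at 49.0 and 13 CPM, 3.77-fold lower (2.25 to 6.82), and in macrophages at 39.4 and 74.8 CPM. Summed over all T cells these differences left 29.8 and 31.3 CPM, an interval that covered no difference. In Foxp3 cells it was higher in treated cells by share as well: it had a UMI in 14.5% of untreated and 22.6% of treated cells at 2000 UMIs, and in 25.5% and 37.2% at full depth.

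**Figure D3:**
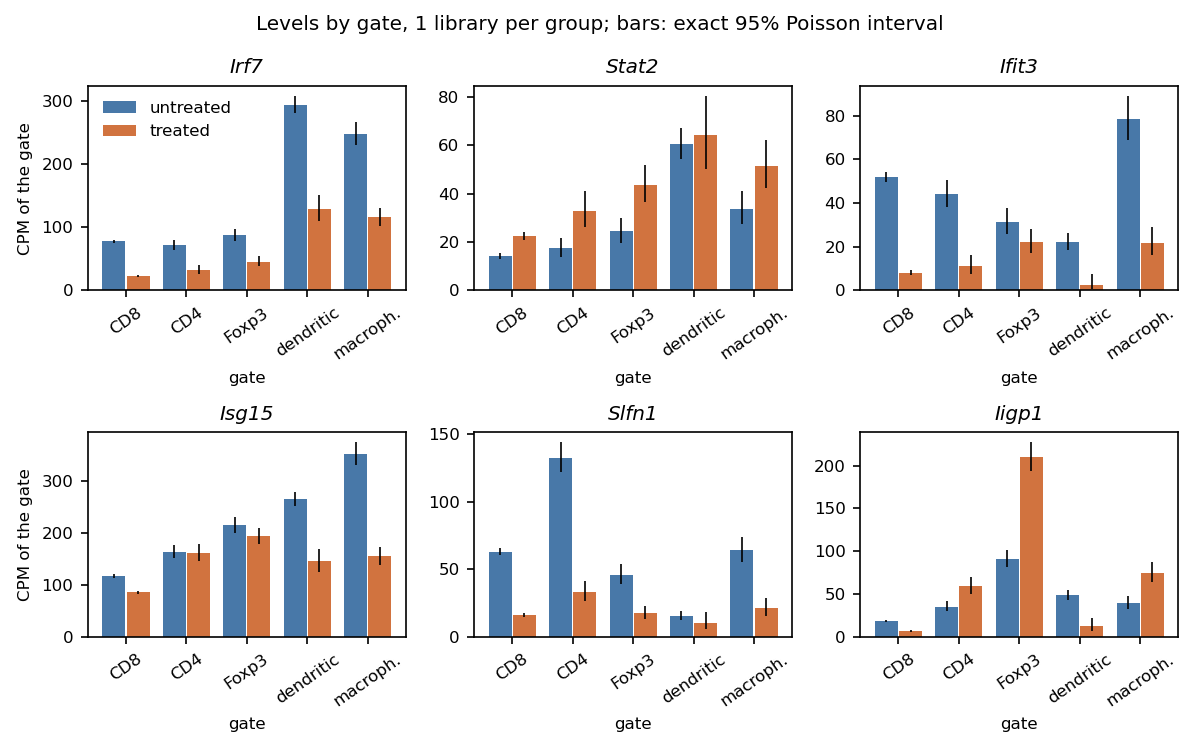
Levels of 6 genes in 5 gates in CPM, with bars from 0 for the untreated and treated library (1 each) and exact 95% Poisson intervals. Irf7 and Slfn1 bars are shorter in the treated library in each gate, Stat2 bars are taller in CD8, CD4, Foxp3 and macrophage cells, and the Iigp1 bar in Foxp3 cells is at 90.9 and 210 CPM.

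The difference was also counted by cell, as the share of cells in which many genes of the list had a UMI. Each cell was thinned to 2000 UMIs, since detection follows depth, and 5 genes was taken as many. In CD8 cells 16.8% of untreated (15.7 to 18.0) and 6.56% of treated cells (5.87 to 7.30) reached 5 genes, leaving out 62 and 71 shallower cells. At full depth the shares were 60.2% and 45.0%. Close to the line, 324 untreated and 260 treated CD8 cells had 4 genes, and 195 and 128 had 5. At 10 or more genes the shares were 5.13% (4.48 to 5.85) and 1.43% (1.11 to 1.81). The count of genes is a range along which cells spread without a gap, and not a cell type.

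The shares at 5 genes were 15.7% (13.4 to 18.3) and 10.6% (7.98 to 13.8) in CD4 cells, with 39.5% and 36.1% at full depth. In Foxp3 cells they were 25.5% (21.6 to 29.6) and 22.9% (18.9 to 27.2), with 69.8% and 68.7% at full depth. In dendritic cells they were 19.0% (15.0 to 23.5) and 8.70% (3.83 to 16.4), with 78.2% and 60.2% at full depth, and in macrophages 41.0% (33.7 to 48.6) and 27.8% (21.4 to 35.1), with 76.4% and 64.2%. In each of these 4 gates the intervals of the libraries overlapped, and in CD8 cells they did not. The intervals narrow with the number of cells, and at 2000 UMIs the CD8 gate had 4130 untreated and 4697 treated cells. The dendritic gate had 348 and 92, and the macrophage gate 178 and 176. Overlap therefore does not show that the difference was larger in CD8 cells, and differences between gates were not tested. Among dendritic cells with an Xcr1 or Clec9a UMI the thinned shares were 21.3% and 21.4%. Among the CD8 cells with Pdcd1 they were 18.5% and 4.94%. At full depth, where the untreated cells of that subset were deeper on average, they were 78.6% and 47.5%. As a reference for free RNA, Trbc2, a T cell receptor gene, had a UMI in 0.862% of untreated and 5.43% of treated dendritic cells (7.93% and 9.68% at full depth, median 16273 and 10638 UMIs) and in 2.81% of untreated and 2.27% of treated macrophages at 2000 UMIs (14.4% and 9.33% at full depth, median 8652 and 7529 UMIs). C1qb, a macrophage gene, had one in 1.69% and 0.405% of CD8 cells (6.44% and 1.43%, median 6438 and 6461.5 UMIs). C1qb is among the macrophage genes that limit the T cell gate, which holds its share down. Trbc2 is not a gate gene, but the myeloid gates allow at most 1 UMI of the T cell genes. These shares therefore do not measure free RNA alone.

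**Figure D4:**
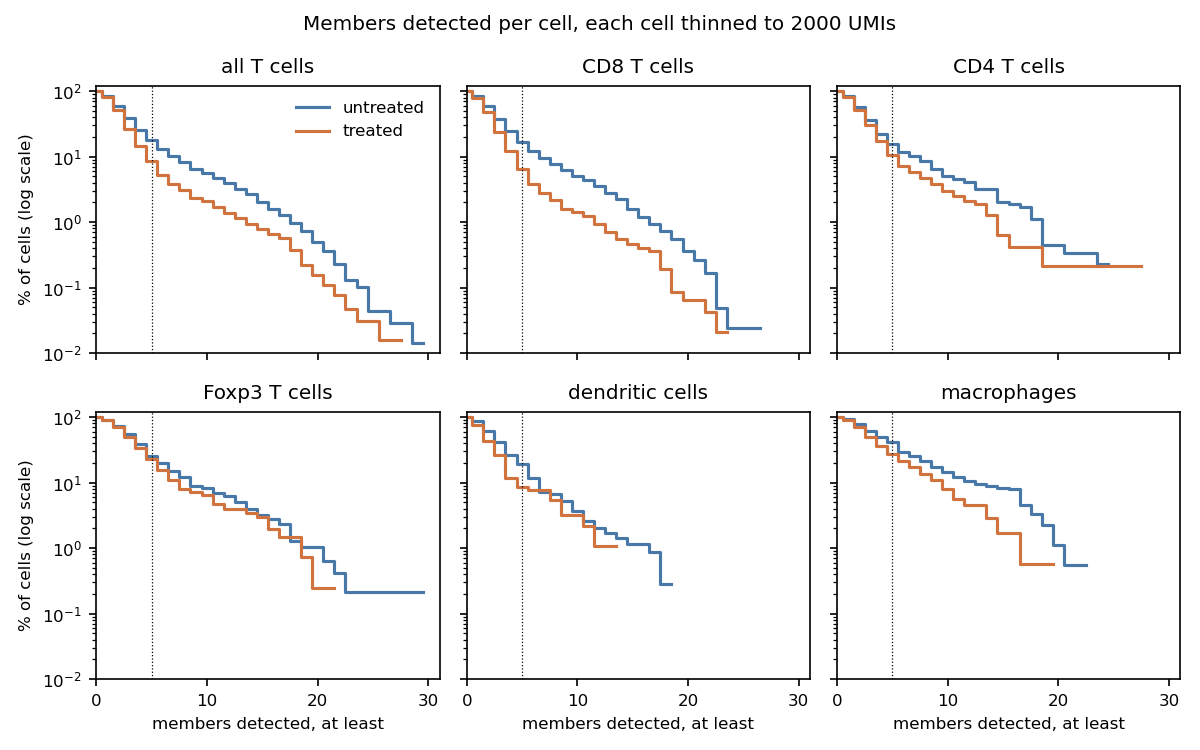
Share of cells (log axis) with at least the given number of the 36 genes detected after thinning to 2000 UMIs, for each gate and library; the dotted line marks 5 genes. The treated line runs below the untreated line over most of the CD8 panel, where 16.8% and 6.56% of cells reached 5 genes, and the lines lie close in Foxp3 cells, with 25.5% and 22.9%.

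The share of the list's UMIs that came from CD8 cells with 5 or more genes was 50.6% untreated and 26.7% treated. The level per cell was lower at each percentile given: the 10th percentile of CD8 cells was 3.52 and 2.94 UMIs of the list per 10000, the median CD8 cell had 9.92 and 7.77, the 90th percentile 35.3 and 18.7, and the 95th 66.2 and 27.2. The gap was thus wider in the upper tail than at the median. In Foxp3 cells the medians were 15.7 and 14.7 and the 95th percentiles 105 and 69.5.

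Genes of the list were found together in the same cells to different degrees. Among untreated CD8 cells thinned to 2000 UMIs, the 307 with an Ifit3 UMI had on average 8.94 other genes of the list, against 2.25 in cells without. In the treated library only 58 cells had an Ifit3 UMI, but those had 8.41 others, against 1.78. Ifit3 thus marked cells with many of the other genes in both libraries, and fewer such cells were present in the treated one. For Isg15 the values differed: it had a UMI in 13.7% of untreated and 12.6% of treated CD8 cells (28.8% and 30.1% at full depth), while its cells had 6.61 and 2.99 other genes. Stat2 cells had 5.92 and 2.62 others, and in Foxp3 cells the 69 untreated and 92 treated Iigp1 cells had 7.55 and 4.23.

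Other genes of the pathway were read from 3 lists named by function. Of 27 upstream genes measured in all T cells, 4 were at least 1.5-fold lower, against 18.8% of 13195 genes, and 4 higher, against 28.3%, while the 36 genes themselves counted 18 lower and 1 higher. The receptor genes Ifnar1, at 54.8 and 52.5 CPM, and Ifnar2, at 33.7 and 33.3 CPM, were within 1.5-fold in all T cells. Jak2, a kinase of the interferon gamma receptor, was 2.28-fold higher (2.15 to 2.42) and Stat3, a factor of cytokine receptors, 2.55-fold higher (2.49 to 2.60). Ifngr2, a chain of the interferon gamma receptor, was 2.26-fold lower (2.01 to 2.54), and Tlr7, a sensor of RNA in endosomes, 8.45-fold lower (4.77 to 16.3) at 2.43 and 0.287 CPM. Ifnb1 and 9 other listed genes, most of them interferons, had no row in the deposited table, so their transcripts could not be compared. Socs1, an inhibitor of Jak kinases, stood at 79.5 and 120 CPM in CD8 cells, 1.5-fold higher (1.43 to 1.58).

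Of 55 other type I interferon genes measured in all T cells, 22 were lower, against 18.8% of all genes, and 4 higher, against 28.3%, with a median of -0.42. Ms4a4c, a membrane protein gene, stood at 105 and 29.4 CPM, 3.56-fold lower (3.35 to 3.78), and Ifi44 3.32-fold lower (2.43 to 4.6). Helz2, a helicase gene, was 2.38-fold higher (2.20 to 2.57) and Tor1aip1, a nuclear envelope gene, 2.31-fold higher (2.22 to 2.41).

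Of 33 interferon gamma genes measured in CD8 cells, 13 were lower, against 20.1% of all genes, and 3 higher, against 30.9%, with a median of -0.35. Their summed level in CD8 cells was 10052 CPM untreated and 10933 CPM treated. Of 30 in Foxp3 cells 1 was lower, against 15.0%, and 10 higher, against 18.3%, with a median of 0.24. The other gates lay between these medians. Of 30 in CD4 cells 5 were lower (19.1%) and 7 higher (24.4%), with a median of 0.11. Of 30 in dendritic cells 6 were lower (18.6%) and 7 higher (23.0%), and of 29 in macrophages 9 (17.5%) and 8 (23.1%). Both had a median of -0.01. Irf1, a transcription factor induced by interferon gamma, stood at 111 and 207 CPM in Foxp3 cells, 1.86-fold higher (1.64 to 2.12), at 59.9 and 179 CPM in macrophages, 3.0-fold higher (2.50 to 3.60), and within 1.5-fold in CD8 cells. In all T cells Psmb10, an immunoproteasome gene, was 2.02-fold lower (1.95 to 2.09) and Ciita, the class II activator, 5.15-fold lower (2.42 to 12.6) on 48 and 8 UMIs. There Nlrc5, the class I activator, was 2.71-fold higher (2.56 to 2.87) and Cd274, the gene of PD-L1, 1.69-fold higher (1.58 to 1.81). Ifng itself stood at 85.4 and 146 CPM in CD8 cells, 1.71-fold higher (1.64 to 1.79), but at 171 and 151 CPM in the CD8 cells with Pdcd1, 1.13-fold lower (1.07 to 1.19).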

How the data were processed

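Single-cell libraries came from a droplet kit that reads the 3′ end (v3 gel beads), per the labels. The submitters' processing notes name Cell Ranger and Seurat, without versions, and the build GRCh38. Since the gene symbols are those of mouse, coordinates were not taken from the table. What the authors deposited is a single table (15121 genes, 17390 cells) whose values are the natural log of UMIs per 10000 plus 1. Dividing by the smallest value of each cell gave whole numbers, within 0.01, for 100% of 38204229 nonzero values, and these UMIs were used. Cells were assigned to libraries by the number that ends their name, which matches the sample number in the labels and the cell counts given there.

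Cells with at most 10% mitochondrial UMIs were kept (216 untreated and 358 treated removed). T cells had 2 or more UMIs over Cd3e, Cd3d, Cd3g and Trac and fewer than 3 macrophage and 3 dendritic genes, which removed 1097 and 477 mixed cells. CD8 cells had Cd8a or Cd8b1 and no Cd4 or Foxp3, CD4 cells had Cd4 and no Cd8 or Foxp3, and Foxp3 cells had Foxp3 and no Cd8. Dendritic cells had at most 1 T cell UMI, 3 class II UMIs and 2 or more dendritic genes, more than macrophage genes. Macrophages had at most 1 T cell UMI and 3 or more macrophage genes, more than dendritic genes. No doublet caller was used in the main values.

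UMIs were summed per library and gate. Genes with 20 or more UMIs in a gate, and some in each library, were compared. Ratios have exact conditional binomial intervals, levels exact Poisson intervals and shares Clopper-Pearson intervals, all at 95%. Cells were thinned to 2000 UMIs without replacement. The interval step was tested on simulated counts. All 36 genes are accounted for. Of each of 3 further lists, the 2 highest and 2 lowest genes in all T cells with 50 or more UMIs are named, with Irf1, Ifng, Ifnar1, Ifnar2 and Socs1. A further gene of that rule and a planned subset of the CD8 cells are not reported here, so ranges over the alternatives in CD8 cells do not cover that subset. The genes, lists and gates were chosen with earlier results of these data known. RefSeq promoter windows (GRCm38.p6) were used for sequences; 8 genes had none. Intervals used scipy 1.17.1, tables pandas 2.3.3 and numpy 2.4.6, Scrublet scanpy 1.11.5 and plots matplotlib 3.10.9, under Python 3.11.15.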

Additional observations from a re-analysis of the deposited data

Results flagged for a closer look

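Iigp1, the vacuole-attacking GTPase, was past 1.5-fold in opposite directions in different gates, with intervals clear of no difference, which is what brought it here. Slfn8 also had intervals on opposite sides, lower in CD8 and higher in Foxp3 cells, but its CD8 difference was under 1.5-fold. The log2 ratio of treated to untreated for Iigp1 was 0.76 in CD4 T cells, 1.21 in Foxp3 T cells and 0.93 in macrophages. It was -1.39 in CD8 T cells and -1.91 in dendritic cells. With 1 library per group the difference between the gates was not tested. Over the alternatives the range of Iigp1 was 1.11 to 1.25 in Foxp3 cells, 0.64 to 0.94 in CD4 cells and -2.26 to -1.74 in dendritic cells. In macrophages it was wider, 0.14 to 1.21, and so came under the 1.5-fold line in part. At 2000 UMIs per cell, 12 of 178 untreated and 13 of 176 treated macrophages had an Iigp1 UMI.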

How the results depend on the processing

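The median log2 ratio of the 36 genes stayed below 0 under every alternative run in CD8 (-1.03 to -0.64), CD4 (-0.58 to -0.30), Foxp3 (-0.32 to -0.19) and all T cells (-0.75 to -0.39) and in macrophages (-0.81 to -0.12). The exception was the dendritic gate, where it turned to 0.0749 with Xcr1 or Clec9a cells only (6 lower, 7 higher, share difference 0.179 percentage points). That gate, the ones without Siglech and with C1q genes, and the removal of shared barcodes were chosen after seeing the data. With a mean of 20 CPM or more, fewer genes entered: lower genes numbered 10 in all T, 11 in CD8 (0 higher), 6 in Foxp3 and 6 in dendritic cells, and the medians were -0.39 in all T and -0.64 in CD8 cells. The single higher gene, Stat2, was under 1.5-fold (0 higher) in all T and CD8 cells with a T gate of 1 UMI, without ribosomal and mitochondrial genes in the total and when centred on all genes, and in CD8 cells at 5% mitochondrial UMIs. CD8 medians were -1.03 without ribosomal and mitochondrial genes, -0.98 centred and -0.64 with Pdcd1 (2 higher). Thinned CD4 cells had 5 higher genes. Dendritic cells had 17 lower genes by mean CPM per cell or without cycling cells, and 0 higher at 5% mitochondrial UMIs, without the highest 5% of Scrublet scores, without ribosomal and mitochondrial genes or without cycling cells. Macrophages had 1 higher gene at 5% mitochondrial UMIs, 3 by mean CPM per cell, 3 when thinned and 2 without cycling cells (median -0.81). The treated minus untreated share of cells with many genes was -12.3 points in all T and -13.9 in CD8 cells at 3 genes, -5.13 and -5.43 at 8 genes, -4.70 and -4.82 at 1000 UMIs and -11.4 and -12.9 at 5% mitochondrial UMIs. In CD8 cells it was -15.2 unthinned and -13.5 with Pdcd1. The counts of lower and higher genes in this paragraph stand without the share of all genes under each alternative. They show how the counts of the list moved, and not how the list stood against other genes. The cause of these shifts was not tested. Of genes past 1.5-fold, Mx1 in Foxp3 cells and Rsad2 in macrophages changed sign under an alternative reported here. Fold counts cannot be formed on the deposited log scale. No paired analysis was possible because each group is 1 library. The number of cells, 93 in the treated dendritic gate, limits the values there.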
